A study of Homo sapiens with 20 samples.

Results

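The KDM4 family of histone demethylases was followed through 20 microarrays of 2 human rhabdomyosarcoma cell lines. The family has 5 members on the array, KDM4A, KDM4B, KDM4C, KDM4D and KDM4E, out of 17687 genes measured. They were picked by gene symbol, with earlier results of these data known, and each has 1 probe set. The enzymes belong to the Jumonji C class, which uses iron and 2-oxoglutarate to strip methyl groups from lysines. Their substrates on histone H3 are trimethylated and dimethylated H3K9, a mark of silent chromatin, and, for KDM4A to KDM4C, also H3K36, a mark of transcribed gene bodies. KDM4A to KDM4C carry PHD and Tudor domains that bind histones. KDM4D and KDM4E are shorter proteins without them, and their genes are neighbours on chromosome 11.

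Rh30 and Rh41 are established lines of alveolar rhabdomyosarcoma, a childhood tumour of muscle-like cells, and both carry the PAX3-FOXO1 fusion gene. The samples fell into 8 groups. Rh30 cells received a control shRNA or an shRNA against KDM4B (2 arrays each), or a control siRNA or an siRNA against KDM4C (2 arrays each), and were collected at 72 h. Rh30 and Rh41 cells received DMSO, the solvent, or 200 nM QC6352, a small-molecule inhibitor of KDM4 demethylases, and were collected at 48 h (3 arrays each). All cells grew in RPMI medium. The labels call the arrays of a group biological replicates. They do not say how many hairpin or siRNA sequences were used per gene, and no rescue or inactive compound was among the groups.

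The labels of 10 Rh30 arrays, namely all DMSO, QC6352 and siRNA arrays of that line, name 2 different groups. The title, source name, treatment and second line of the description name the same group, and the sample name in the first line of the description differs. One title also reads shRNA where the other fields of that array read siRNA; it is siKDM4C replicate 2 here. Groups follow the titles throughout. The Rh30 comparison of QC6352, the siRNA comparison and the comparison of the lines rest on these arrays and have no value without them. The values of the members with groups by sample name are therefore given too. For the other named genes they are given in part, in the closing sections. The group means of the hairpin comparison and of QC6352 in Rh41 use none of these 10 arrays. Their standard errors and p-values do, because all 20 arrays share an estimate of each gene's spread. With groups by sample name, the hairpin called 725 genes against 2047 by title. QC6352 in Rh41 then called 1537 genes against 3479. The 4 arrays titled siRNA had medians over all probe sets of 6.72 to 6.75, the other Rh30 arrays 6.95 to 6.99, and the Rh41 arrays 7.22 to 7.25 (log2 signal).

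The identity of the lines was checked on muscle and rhabdomyosarcoma markers. MYOD1, MYOG, DES and FGFR4 lay above the highest background probe set on all 20 arrays. CHRNG did so on 7 arrays. TFAP2B, a PAX3-FOXO1 target, did so on the 6 Rh41 arrays, at 8.21 to 9.48, and lay at 3.91 to 4.54 in Rh30. Of the markers of other cell types, 4 of 4 for blood, 4 of 5 for endothelium, 3 of 5 for epithelium and 2 of 5 for fibroblasts passed the highest control set on no array. CD14 (5.74 to 6.95) and VWF (6.19 to 7.24) were among these but lay above the background median on every array. KRT8 and COL1A2 passed the highest set on 19 arrays each, and KRT19 on the 6 Rh41 arrays (8.37 to 8.59). COL1A1 and PDGFRB did so on 3 arrays each and PECAM1 on 1. The part of these markers in the results was not tested.

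Promoter sequences are shown for 3 members on which the results turn: KDM4A and KDM4D, whose signals moved with QC6352, and KDM4B, the target of the hairpin. Each run holds the 250 bases before the RefSeq gene start on build GRCh38.p14, plus strand. Capitals mark CCAAT or its reverse complement ATTGG, the letters bound by the factor NF-Y. The windows are chr1:43649899-43650148 for KDM4A, chr19:4968863-4969112 for KDM4B and chr11:94973459-94973708 for KDM4D.
KDM4A: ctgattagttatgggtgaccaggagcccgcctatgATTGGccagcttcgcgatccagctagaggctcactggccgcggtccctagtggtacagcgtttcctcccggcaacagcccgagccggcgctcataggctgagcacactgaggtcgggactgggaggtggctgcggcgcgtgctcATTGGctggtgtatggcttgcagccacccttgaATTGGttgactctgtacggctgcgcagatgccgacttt
KDM4B: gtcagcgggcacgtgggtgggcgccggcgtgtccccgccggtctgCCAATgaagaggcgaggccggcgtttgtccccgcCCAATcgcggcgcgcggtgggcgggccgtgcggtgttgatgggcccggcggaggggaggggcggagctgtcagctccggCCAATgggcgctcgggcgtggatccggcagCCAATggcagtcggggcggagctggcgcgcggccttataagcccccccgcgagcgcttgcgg
KDM4D: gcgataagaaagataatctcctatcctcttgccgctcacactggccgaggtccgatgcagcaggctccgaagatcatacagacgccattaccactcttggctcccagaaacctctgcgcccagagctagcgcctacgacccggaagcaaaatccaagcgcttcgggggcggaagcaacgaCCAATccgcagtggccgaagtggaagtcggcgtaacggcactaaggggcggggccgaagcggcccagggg

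RefSeq windows were found for 4 of the 5 members. On both strands, the KDM4A window holds CCAAT 3 times, all on the minus strand. The KDM4B window holds it 4 times, all on the plus strand, and the KDM4D window once. The KDM4C window holds no CCAAT. These letters occur in 32.0% of the 35116 promoter windows of this length. GGGCGG, the GC box, occurs 4 times for KDM4B and 2 times for KDM4D, and in 42.6% of all windows. ACGTG, the core of the hypoxia response element, occurs 4 times for KDM4C and 2 times for KDM4B, and in 18.5% of all windows. For KDM4C and KDM4B, all of these matches lie inside CACGTG, the E-box of MYC. CACGTG reads the same on both strands, so each such site counts as ACGTG once on each strand. It occurs 2 times for KDM4C and 1 time for KDM4B and in 6.34% of all windows. The myogenic E-box CAGCTG occurs in none of the 4 windows and in 14.0% of all. GC content was 61.2% for KDM4A, 75.6% for KDM4B, 59.2% for KDM4C and 60.8% for KDM4D, beside a median of 58.0% over all windows. A match describes letters and was not tested as a binding site.

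All levels below are log2 signals, so that a difference of 1 is a change of 2-fold. Overlap of arrays between groups is a description. It was not tested, and its share over all genes was not counted. Whether a member is detected was judged against 23 control probe sets on each array, which match no gene and are named for 3 to 25 G and C bases. Their median was 3.64 to 4.01 per array, and the highest of them reached 7.09 to 8.05. Signal rose with the GC number of the control sets, from a mean of 3.06 at GC number 3 to 7.71 at 23, and was 6.82 at 25. The GC content of the KDM4 probes was not used here, so the control set that fits each member is not known.

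KDM4A lay at 7.98 to 9.49, above the highest control set on all 20 arrays. KDM4B lay at 6.01 to 7.30, above the background median by 2.04 to 3.30 but below the highest control set on all 20 arrays. KDM4C lay at 6.12 to 7.94 and passed the highest control set on 3 arrays, those of QC6352-treated Rh41. KDM4D lay at 3.36 to 6.34 and KDM4E at 3.51 to 5.22. Each was above the background median on 18 of 20 arrays, and neither reached the highest control set on any array. A fold change of KDM4D or KDM4E is therefore a change of a signal within the range of the background sets, and is not shown to be one of transcript. The same limit holds for KDM4B, and for KDM4C outside QC6352-treated Rh41, though both lay above the background median on all 20 arrays.

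**Figure D1:**
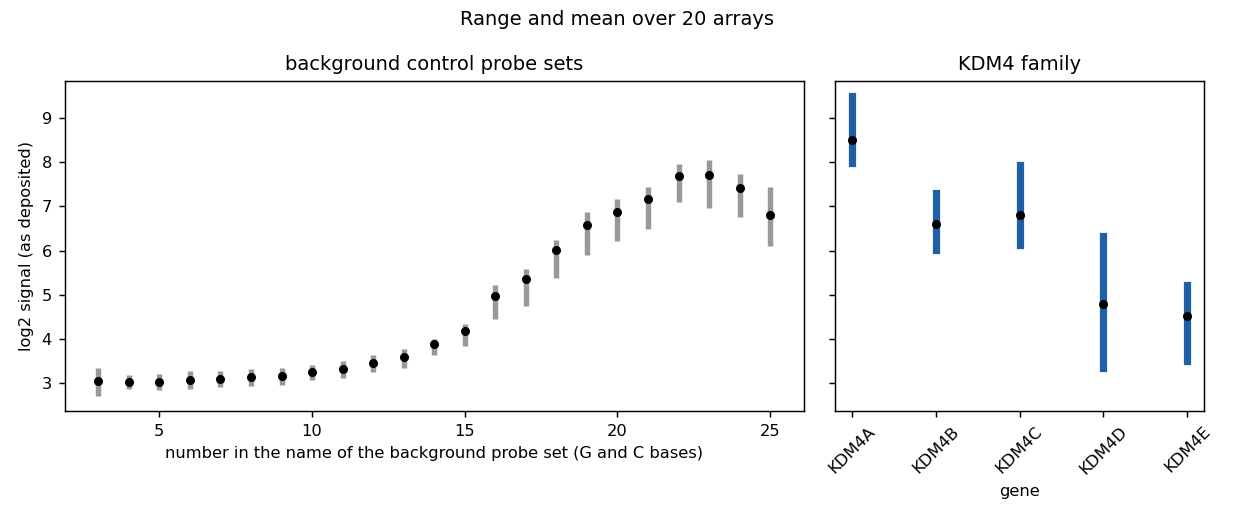
Log2 signal of the 23 background control probe sets by the GC number in their names (left) and of the 5 KDM4 members (right); bars span the 20 arrays and points are means. KDM4A lies above every control set of its array. KDM4B, KDM4D and KDM4E lie within the range of the control sets, as does KDM4C except in QC6352-treated Rh41.

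Across the 8 groups, KDM4A had an order that its arrays separated at the top. It stood at 9.38 ± 0.12 (SD, n = 3) in QC6352-treated Rh41, 8.87 ± 0.07 (n = 3) in Rh41 with DMSO and 8.63 ± 0.13 (n = 3) in QC6352-treated Rh30, with no overlap of arrays between neighbours. The other 5 Rh30 groups followed at means of 8.06 to 8.20 and overlapped from one to the next. KDM4B had its highest mean, 7.02 ± 0.40 (n = 2), with the control hairpin and its lowest, 6.08 ± 0.09 (n = 2), with the KDM4B hairpin. All its neighbouring groups overlapped except siKDM4C and QC6352-treated Rh41.

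KDM4C separated the cell lines. Its means were 7.84 ± 0.09 (n = 3) in QC6352-treated Rh41 and 7.42 ± 0.19 (n = 3) in Rh41 with DMSO, with no overlap. The 6 Rh30 groups lay at 6.28 to 6.56, and each overlapped its neighbour. KDM4D was highest in Rh41 with DMSO, at 6.15 ± 0.17 (n = 3), and did not overlap the next group, the KDM4B hairpin. From there to the control hairpin neighbours overlapped. A gap followed, and QC6352-treated Rh30 and both siRNA groups overlapped at the low end, with means of 3.73 to 4.08. KDM4E ran from 5.01 ± 0.22 (n = 3) in Rh41 with DMSO to 3.73 ± 0.32 (n = 2) with the control siRNA. Its groups formed 3 steps without overlap between them. Both Rh41 groups and the KDM4B hairpin were highest, the DMSO, QC6352 and control hairpin groups of Rh30 were between, and both siRNA groups were lowest. Over the 8 group means, KDM4A and KDM4C had a Pearson r of 0.92 and KDM4D and KDM4E one of 0.88, while KDM4B had r of -0.45 to -0.28 with the others. These are descriptions, since all members share the arrays and the line difference.

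**Figure D2:**
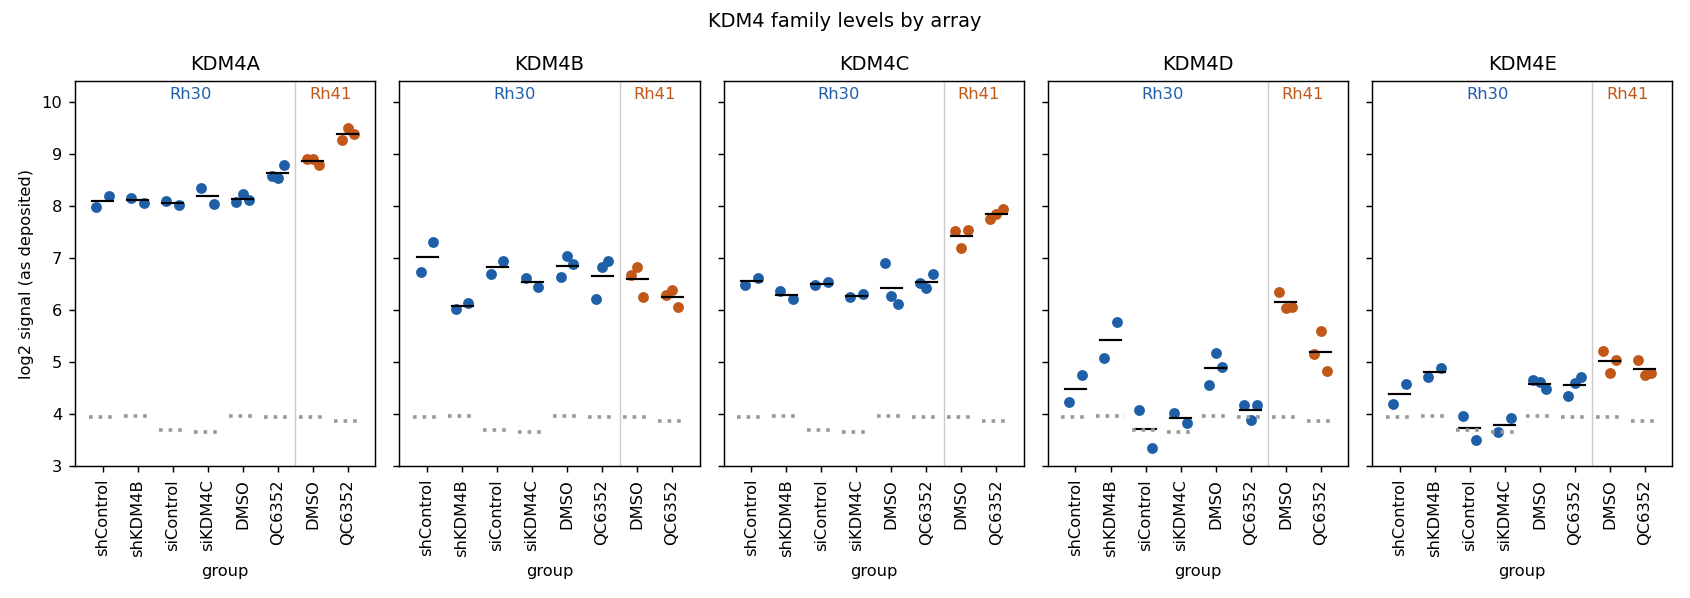
Log2 signal of each KDM4 member on each of the 20 arrays, by group (blue Rh30, orange Rh41). Black bars are group means and dotted grey bars the background medians of the groups. KDM4A and KDM4C are highest in Rh41, and KDM4B has its lowest mean with its hairpin.

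The hairpin comparison asked what knockdown of KDM4B did in Rh30. KDM4B is known for its induction by hypoxia and its part in steroid receptor signalling, and it is the target of the hairpin. The labels of these 4 arrays do not conflict, so the target does not check the labels in doubt. The KDM4B signal was 6.74 and 7.30 with the control hairpin and 6.01 and 6.15 with the KDM4B hairpin. Both knockdown arrays lay below both controls. The difference was -0.94 (SE 0.23, 95% interval -1.43 to -0.45), which is 1.92-fold lower (limma, adjusted p = 0.0120). The call rests on few arrays: without control replicate 2 the value was -0.66 (adjusted p = 0.157), without KDM4B hairpin replicate 1 it was -0.87 (0.0939) and without KDM4B hairpin replicate 2 it was -1.005 (0.05004). A fit of these 4 arrays alone gave adjusted p = 0.0555.

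KDM4D, whose signal lies in the background range like that of KDM4B, moved the opposite way. It was 4.23 and 4.75 with the control hairpin and 5.09 and 5.78 with the KDM4B hairpin, without overlap. The rise was 0.94 (SE 0.28, adjusted p = 0.0343 by limma). It missed the threshold without control replicate 1 (0.68, adjusted p = 0.268) and without KDM4B hairpin replicate 2 (0.60, adjusted p = 0.347), as well as with quantile normalization (0.90, adjusted p = 0.052), array weights (adjusted p = 0.0626) or a fit of the 4 arrays alone (adjusted p = 0.112). KDM4E was 4.20 and 4.58 against 4.72 and 4.89, also without overlap, and its difference of 0.42 (SE 0.18) was not called (adjusted p = 0.165). Whether probes of KDM4D and KDM4E take up RNA of the other gene was not tested.

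The remaining paralogs did not pass the test after KDM4B knockdown. KDM4C was 6.49 and 6.62 with the control hairpin and 6.37 and 6.21 with the KDM4B hairpin, a difference of -0.27 (95% interval -0.66 to 0.12, adjusted p = 0.445 by limma). KDM4A was 7.98 and 8.19 against 8.15 and 8.06, a difference of 0.02 (interval -0.25 to 0.29, adjusted p = 0.966). In this comparison 11.6% of all 17687 genes were called, 5.26% higher and 6.31% lower. Of the 5 members, 1 was higher and 1, the target, was lower.

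The siRNA comparison asked the same for KDM4C in Rh30. KDM4C is the member first known as a gene amplified in squamous carcinoma. Its signal was 6.48 and 6.54 with the control siRNA and 6.25 and 6.32 with the KDM4C siRNA. Both siKDM4C arrays lay below both controls, by a small margin. The difference was -0.23 (SE 0.19, 95% interval -0.62 to 0.17), which is 1.17-fold lower and was not called (limma, adjusted p = 0.651). A fall of signal of more than 0.62 on the log2 scale lies outside that interval. KDM4C lay below the highest control set on each of these arrays, so the interval does not bound a fall of transcript. With groups by sample name, the arrays named siControl held 6.12 and 6.52 and those named siKDM4C 6.42 and 6.69, a difference of 0.23 (adjusted p = 0.672).

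No other member passed the test with the KDM4C siRNA. KDM4B was 6.70 and 6.94 with the control and 6.62 and 6.45 with the siRNA, without overlap, and differed by -0.28 (interval -0.77 to 0.21, adjusted p = 0.650 by limma). KDM4A differed by 0.14 (interval -0.13 to 0.40), KDM4D by 0.21 (interval -0.38 to 0.79) and KDM4E by 0.06 (interval -0.32 to 0.44), with arrays that overlapped for all 3. With groups by sample name the differences were 0.31 for KDM4A, 0.33 for KDM4B, -0.50 for KDM4D and 0.24 for KDM4E, none of them called (adjusted p = 0.454 to 0.696). Over all genes 0.458% were called, 0.266% higher and 0.192% lower (47 and 34, or 67 and 26 with the background median subtracted), so 0 of 5 members stands beside a low background. At an unadjusted p under 0.05 the fit held 2446 genes and none of the members. That count of called genes moved from 8 to 1789 when single arrays were left out, with 1789 without siKDM4C replicate 1.

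**Figure D3:**
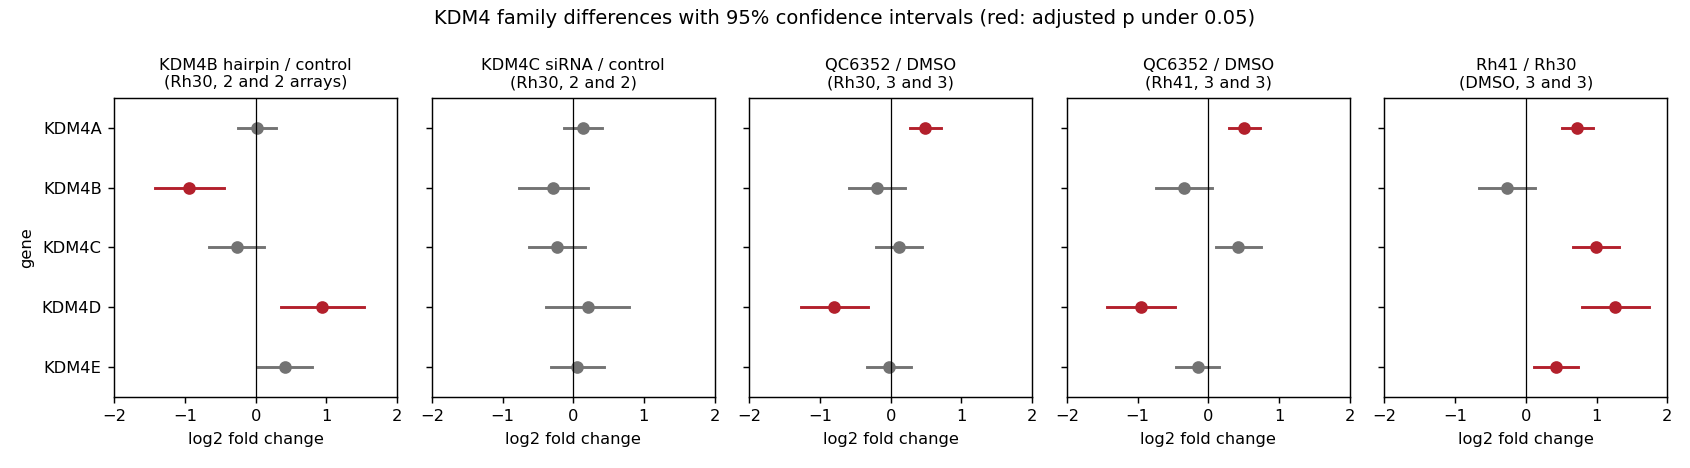
Difference of group means on the log2 scale for each KDM4 member in 5 comparisons, with 95% confidence intervals from limma; red marks an adjusted p under 0.05 over all 17687 genes. KDM4B is lower with its hairpin, KDM4C with its siRNA spans 0, and KDM4A is higher and KDM4D lower with QC6352 in both lines.

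QC6352 was compared with DMSO in each line to see how the family responded to its inhibitor. KDM4A, among the first enzymes shown to remove lysine trimethylation, was 8.08, 8.23 and 8.11 with DMSO in Rh30 and 8.58, 8.54 and 8.78 with QC6352. In Rh41 it was 8.90, 8.91 and 8.79 with DMSO and 9.26, 9.49 and 9.38 with QC6352. Every treated array lay above every DMSO array of its line. The rise was 0.49 (SE 0.10, interval 0.27 to 0.71) in Rh30 and 0.51 (SE 0.10, interval 0.29 to 0.73) in Rh41, which is 1.41-fold and 1.42-fold. Limma gave adjusted p = 0.000865 in Rh30 and adjusted p = 0.00156 in Rh41. The responses differed by 0.02 (interval -0.29 to 0.33, adjusted p = 0.952). With groups by sample name the Rh30 value was -0.035 (adjusted p = 0.909).

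KDM4D fell in both lines. It was 4.56, 5.18 and 4.90 with DMSO and 4.17, 3.89 and 4.19 with QC6352 in Rh30, where the background median of these arrays was 3.84 to 4.01. In Rh41 it was 6.34, 6.03 and 6.07 with DMSO and 5.15, 5.61 and 4.83 with QC6352. The arrays overlapped in neither line. The fall was -0.80 (SE 0.23, adjusted p = 0.00923) in Rh30 and -0.95 (SE 0.23, adjusted p = 0.00542) in Rh41 by limma, or 1.74-fold and 1.94-fold. In Rh30 the call was lost without DMSO replicate 2 (-0.65, adjusted p = 0.0557), and with groups by sample name the sign turned (0.70, adjusted p = 0.224). The responses differed by -0.16 (interval -0.83 to 0.52, adjusted p = 0.808).

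KDM4C was close to the threshold in Rh41. It was 7.52, 7.19 and 7.54 with DMSO and 7.76, 7.84 and 7.94 with QC6352, without overlap. The difference of 0.43 (SE 0.15, interval 0.11 to 0.75) was not called (limma, adjusted p = 0.0583), but 6 of the alternative settings called it, with adjusted p of 0.0128 to 0.0492. In Rh30 it was 6.90, 6.26 and 6.12 with DMSO and 6.52, 6.42 and 6.69 with QC6352. These arrays overlapped, and the difference was 0.11 (interval -0.21 to 0.44, adjusted p = 0.622). Without DMSO replicate 1, the highest of the 6 arrays, it was 0.35 (adjusted p = 0.0339). The responses of the lines differed by 0.31 (interval -0.14 to 0.77, adjusted p = 0.369).

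KDM4B was 6.63, 7.04 and 6.89 with DMSO and 6.21, 6.83 and 6.94 with QC6352 in Rh30, and the arrays overlapped. In Rh41 it was 6.68, 6.84 and 6.25 with DMSO and 6.29, 6.39 and 6.06 with QC6352, again with overlap. The differences were -0.19 (interval -0.59 to 0.21, adjusted p = 0.488) and -0.34 (interval -0.74 to 0.06, adjusted p = 0.252) by limma. KDM4E, whose role in tumours is little studied, differed by -0.03 (interval -0.33 to 0.28) in Rh30 and -0.15 (interval -0.46 to 0.16) in Rh41, with arrays between 4.36 and 5.22. Grouped by sample name, the Rh30 differences were -0.046 for KDM4B, 0.072 for KDM4C and 0.69 for KDM4E (adjusted p = 0.0779), none of them called.

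These counts stand beside broad responses of the whole array. In Rh30, 36.3% of all genes were called, 19.9% higher and 16.5% lower. In Rh41, 19.7% were called, 10.9% higher and 8.80% lower, a split of 1923 to 1556 that became 2492 to 1120 with the background median subtracted. In each line 2 of 5 members were called, 1 higher and 1 lower. The difference between the lines called 20% of all genes, 10.5% with a higher and 9.45% with a lower value in Rh41 (1862 and 1672, or 1994 and 1183 with the background median subtracted), and 0 of 5 members by limma. At an unadjusted p under 0.05 it held 5432 genes and again no member. Grouped by sample name, the responses differed by 0.55 for KDM4A (adjusted p = 0.122), -0.30 for KDM4B (adjusted p = 0.606), 0.35 for KDM4C (adjusted p = 0.427) and -0.84 for KDM4E (adjusted p = 0.0760), and KDM4D alone was called (-1.65, adjusted p = 0.0367 by limma).

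The untreated lines were compared through their DMSO arrays. KDM4C was 7.19 to 7.54 in Rh41 and 6.12 to 6.90 in Rh30, a difference of 0.99 (SE 0.15, adjusted p = 1.8e-05 by limma). KDM4A was 0.73 higher in Rh41 (SE 0.10, adjusted p = 7.7e-06), and KDM4D was 1.27 higher (SE 0.23, adjusted p = 9.9e-05). The arrays of these 3 members did not overlap between the lines. How many of all genes did the same was not counted, and 57.6% of all genes were called in this comparison. KDM4E was higher by 0.43 (SE 0.15, adjusted p = 0.0186), a call lost without Rh30 DMSO replicate 3 (0.38, adjusted p = 0.0680) or without Rh41 DMSO replicate 1 (0.33, adjusted p = 0.0972). KDM4B differed by -0.27 (interval -0.67 to 0.13, adjusted p = 0.246), with overlap. With groups by sample name the differences were 0.71 for KDM4A, -0.16 for KDM4B, 0.998 for KDM4C, 2.32 for KDM4D and 1.30 for KDM4E, and the same 4 members were called (adjusted p = 0.000226 or lower).

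The scale of the arrays moved with this comparison. The median of all genes was 0.19 higher in Rh41 as deposited and -0.07 after centring each array on its median. On centred values KDM4A kept a difference of 0.47, KDM4C one of 0.73 and KDM4D one of 1.01, all called, while KDM4E held 0.17 (adjusted p = 0.346). KDM4B was then lower in Rh41, by -0.52 (adjusted p = 0.0227). As deposited, 4 of 5 members were called, all higher, beside 57.6% of all genes, with 40.7% higher and 16.8% lower. That split of 7202 to 2978 became 4598 to 5477 after centring and 4646 to 4962 after quantile normalization.

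The control hairpin and the control siRNA of Rh30 were each compared with DMSO, to see how far these arms differ without any KDM4 intervention. They were not compared with each other. The control hairpin differed from DMSO by -0.39 for KDM4D, -0.20 for KDM4E and -0.05 to 0.16 for the other members, none of them called by limma (adjusted p = 1.00 for all). In that comparison 0.0170% of all genes, or 3 genes, were called and 865 had an unadjusted p under 0.05. The control siRNA differed from DMSO more widely, with 30.4% of all genes called. KDM4D was 3.36 and 4.09 with the control siRNA against 4.56 to 5.18 with DMSO, a difference of -1.16 (SE 0.25, adjusted p = 0.00295), which was -0.79 (adjusted p = 0.0740) without control siRNA replicate 2. KDM4E was 3.51 and 3.96 against 4.48 to 4.65, a difference of -0.85 (SE 0.16, adjusted p = 0.00113).

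Both arms also differ in collection time, 72 h against 48 h, and the siRNA arrays had lower background, with medians of 3.64 to 3.74 against 3.92 to 3.98 with DMSO. With the background median of each array subtracted, KDM4D still differed by -0.90 (adjusted p = 0.0217) and KDM4E by -0.60 (adjusted p = 0.0212). KDM4A, KDM4B and KDM4C, by contrast, had differences of -0.08 to 0.08 between control siRNA and DMSO and were not called. The median difference over all genes in this comparison was -0.21, so the control siRNA arrays lay lower as a whole.

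KDM4A was the only member above the highest control set on all arrays, and the genes whose group means followed it most closely were sought. Among 11239 genes with a mean of at least 6, the 3 closest were STX12 (Pearson r = 0.998 over 8 group means), PRRC1 (r = 0.995) and SNAPC3 (r = 0.994). STX12 encodes a syntaxin of endosomes and SNAPC3 a subunit of the complex that starts transcription of small nuclear RNAs. Such likeness was common, with 959 genes at r above 0.9, and the 8 means share the difference between the lines.

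Other enzymes of histone lysine methylation were described from lists chosen by function. Their counts with QC6352 stand beside 36.3% of all genes called in Rh30 and 19.7% in Rh41. Among 6 other JmjC demethylases of H3K9, QC6352 gave 2 falls in Rh30, and 1 rise and 1 fall in Rh41. JMJD1C, a relative of KDM3A, fell by 0.96 in Rh30 and by 0.37 in Rh41, where it was -0.29 (adjusted p = 0.0767) with the background median subtracted. PHF2 was 8.28 to 8.38 with DMSO and 7.62 to 7.75 with QC6352 in Rh30, a fall of 0.63. KDM7A rose by 0.66 in Rh41 (SE 0.11). The list's median difference was -0.05 in Rh30 and -0.04 in Rh41, beside 0.05 and 0.02 over all genes. Of the 2 other demethylases of H3K36, KDM2B rose by 0.54 in Rh30 and neither passed in Rh41, with list medians of 0.43 and -0.10.

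A further list holds JmjC demethylases of other H3 marks, again beside 36.3% of all genes called in Rh30 and 19.7% in Rh41. Of 5 acting on H3K4 or H3K27, 3 rose and 1 fell in Rh30, and 1 rose in Rh41, with medians of 0.27 and -0.01. KDM5A, an H3K4 demethylase, was 8.31 to 8.42 with DMSO and 9.47 to 9.81 with QC6352 in Rh30, a rise of 1.29 (SE 0.09), and rose by 0.43 in Rh41 (SE 0.09). KDM6B rose by 0.65 and KDM6A fell by 0.76 in Rh30. Both remove methyl groups from H3K27. KDM1B, a flavin-dependent demethylase of H3K4 and the only one measured here, rose by 0.62 in Rh41. The same gene differed by 0.11 in Rh30, which was not called.

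Writers and readers of the marks were counted in the same way, beside 36.3% of all genes called in Rh30 and 19.7% in Rh41. Of 6 H3K9 methyltransferases, SETDB1 fell by 0.41 in Rh30 and none passed in Rh41, with list medians of 0.12 and 0.08. Of 5 H3K36 methyltransferases, 2 rose in Rh30 and 1 in Rh41, with medians of 0.10 in both lines. They were SETMAR, by 0.75 in Rh30, and NSD3, by 0.28 in Rh30 and 0.30 in Rh41. The call of NSD3 was lost in Rh30 without DMSO replicate 2 (0.26), and in Rh41 without DMSO replicate 1 (0.30) or 2 (0.28) or QC6352 replicate 2 (0.28) or 3 (0.28). Of 7 readers of H3K9 methylation, 2 rose and 2 fell in Rh30, and 1 rose and 1 fell in Rh41, with medians of -0.07 and -0.11. TASOR, the scaffold of the HUSH silencing complex, was 8.86 to 8.91 with DMSO and 7.86 to 7.93 with QC6352 in Rh30, a fall of 1.00. CBX3, a heterochromatin protein, fell by 0.58 in Rh30. MPHOSPH8, the HUSH subunit that binds H3K9 trimethylation, rose by 0.58 in Rh30. PPHLN1, another HUSH subunit, rose by 0.37 in Rh30 and 0.43 in Rh41. TRIM28, the corepressor that recruits SETDB1, fell by 0.57 in Rh41.

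Of 5 genes that act on the stability of KDM4 proteins, 2 rose and 1 fell in Rh30, and 1 rose and 1 fell in Rh41. Their medians were 0.17 and 0.26, and 36.3% and 19.7% of all genes were called. RNF8, a ubiquitin ligase that targets KDM4A at DNA damage, was 8.54 to 8.71 with DMSO and 9.56 to 9.63 with QC6352 in Rh30. It was 8.58 to 8.85 and 9.24 to 9.70 in Rh41. The rises were 0.95 and 0.80 (SE 0.12 each). RNF168, its partner, rose by 0.34 in Rh30, a call lost without DMSO replicate 3 (0.27) or QC6352 replicate 3 (0.25). HSP90AB1, a chaperone of which KDM4B is a client, fell by 0.63 in Rh30 and by 0.24 in Rh41. The Rh41 call was lost without DMSO replicate 2 or 3 or any 1 of the 3 QC6352 replicates, at -0.26 to -0.21.

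**Figure D4:**
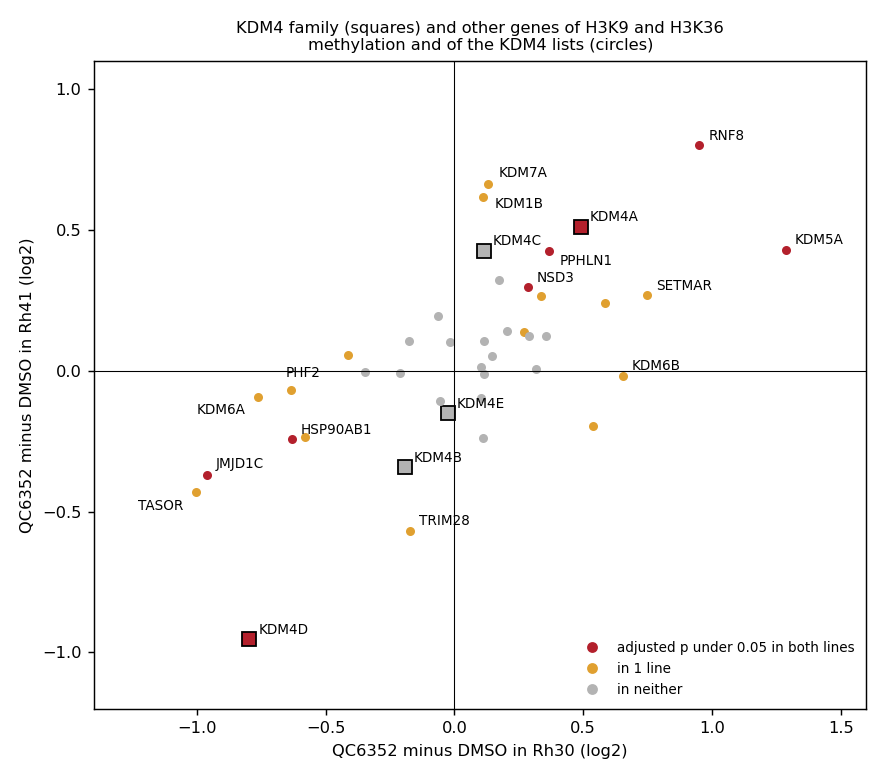
Difference between QC6352 and DMSO (log2) in Rh30 (horizontal) and Rh41 (vertical) for the 5 KDM4 members (squares) and the genes of the functional lists (circles); colour gives the number of lines with an adjusted p under 0.05. KDM4A is at 0.49 and 0.51, KDM4D at -0.80 and -0.95.

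After the KDM4B hairpin, the lists held 1 fall among 6 H3K9 demethylases, 1 rise and 2 falls among 5 demethylases of H3K4 and H3K27, and 1 fall each among the readers, the genes of KDM4 stability and the 1 flavin-dependent enzyme measured. None of the methyltransferases passed. Over all genes 11.6% were called, 5.26% higher and 6.31% lower. TASOR fell by 1.18 and KDM5A by 0.62. PHF8 fell by 0.90. KDM5C fell by 0.59, a call lost without KDM4B hairpin replicate 1 (-0.41). HSP90AA1 fell by 0.85, a call lost without control replicate 1 (-0.60). KDM1B fell by 0.64, a call lost without control replicate 2 (-0.44) or KDM4B hairpin replicate 1 (-0.56). KDM6B rose by 0.50, a call lost without any 1 of the 4 arrays (0.37 to 0.63). In a fit of the 4 arrays alone these 5 calls were lost, with adjusted p = 0.0688 for PHF8, 0.0965 for KDM5C, 0.0585 for HSP90AA1, 0.0879 for KDM1B and 0.103 for KDM6B. The medians of the lists lay between -0.64 and 0.45, beside 0.03 over all genes. With the KDM4C siRNA no gene of the lists passed, beside 0.458% of all genes.

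Between the untreated lines the same lists differed widely, as did the array as a whole. KDM5B, an H3K4 demethylase, was 9.25 to 9.51 in Rh41 and 3.68 to 3.99, near the background median, in Rh30. NSD1, an H3K36 methyltransferase, was higher by 3.36 in Rh41. SUV39H1, which trimethylates H3K9, was 9.36 to 9.63 in Rh41 against 11.12 to 11.34 in Rh30, a difference of -1.75, while SETDB1 and SETDB2 were higher by 1.08 and 1.44. KDM2B was higher by 1.92. As deposited, 4 of the 5 H3K36 methyltransferases were higher and none lower, and 5 of the 7 readers were higher and 1 lower, beside 40.7% and 16.8% of all genes, a split that turned to 4598 higher and 5477 lower after centring. Among these readers PPHLN1 was no longer called after centring (0.19, adjusted p = 0.0938) or quantile normalization (0.16, adjusted p = 0.126).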

How the data were processed

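Total RNA of 20 cultures was labelled from 125 ng and hybridised to Clariom S human arrays, per the labels' protocols. Each probe set has a log2 signal, deposited by the authors; GCOS is named per the submitters' processing notes, and no source used here gives the summarization or normalization. They were used as deposited. Of 24351 probe sets, 17709 had 1 gene symbol, all matched by Entrez identifier, and 6642 had none or several; the probe set with the highest mean stood for a gene, which left out 22 and gave 17687 genes. Limma 3.58.1 in R 4.3.3 fitted 8 group means to all 20 arrays in 1 fit (12 residual degrees of freedom, eBayes without trend), with Benjamini-Hochberg adjustment over all genes and a threshold of 0.05. The fit was tested on simulated data. A p-value reflects only how far replicate arrays, biological ones by the labels, differ, and 2 or 3 arrays per group limit the precision.

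The members, the gene lists and the use of the titles for grouping were chosen with earlier results of these data known. Named genes are the members, up to 3 called genes with the largest change per list and comparison, and the 3 genes most like a member that is above background on all arrays. Values in the other line are given for some of the list genes only. CBX5, ASH1L and KDM1A of the lists were not analysed here. Alternatives were quantile normalization, centring, leaving out the lowest 40% of genes, eBayes with trend and robust, array weights, the replicate number as a block, a fit of the compared arrays, the mean of all probe sets of a gene, groups by sample name and each array left out. Subtracting the background median and leaving out the 10 arrays with conflicting labels were added after seeing the data.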

Additional observations from a re-analysis of the deposited data

Results flagged for a closer look

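The responses of 10 other genes of the lists to QC6352 differed between the lines by the test of the difference itself (Rh41 minus Rh30, limma, adjusted over all genes); no KDM4 member did. The values of KDM5A (-0.86, adjusted p = 9.6e-05), KDM2B (-0.74, adjusted p = 0.0153) and KDM6B (-0.67, adjusted p = 0.0143) were lower in Rh41. Those of KDM6A (0.67, adjusted p = 0.00289), JMJD1C (0.59, adjusted p = 0.00396), PHF2 (0.57, adjusted p = 0.0015) and HSP90AB1 (0.39, adjusted p = 0.0152) were higher. HSP90AB1 held 0.22 (adjusted p = 0.173) with quantile normalization and adjusted p = 0.0562 with the replicate block. The 3 further values depended on single arrays. KDM7A differed by 0.53 (adjusted p = 0.0254), and by 0.44 to 0.51 with the call lost without Rh30 DMSO replicate 2, Rh30 QC6352 replicate 1 or 2, Rh41 DMSO replicate 3, or Rh41 QC6352 replicate 2 or 3. KDM1B differed by 0.50 (adjusted p = 0.0492), and by 0.42 to 0.54 with the call lost without any 1 of the 12 arrays except Rh41 DMSO replicate 1 and Rh41 QC6352 replicate 3. SETDB1 differed by 0.47 (adjusted p = 0.0247), and by 0.39 to 0.46 with the call lost without Rh30 DMSO replicate 1, Rh30 QC6352 replicate 1, Rh41 DMSO replicate 2 or Rh41 QC6352 replicate 2. With groups by sample name, none of the 10 differences was called. KDM2B then held -0.58 (adjusted p = 0.165) and KDM6B -0.25 (adjusted p = 0.556). With 2 or 3 arrays a group, single arrays were not tested as outliers.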

How the results depend on the processing

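With groups by title, no value of a member that was called changed sign, and 570 of 594 values of the members kept their side of the threshold, as did 889 of 958 values of the other named genes. After the KDM4B hairpin, KDM4B held -0.94 in a fit of the compared arrays only (adjusted p = 0.0555) and -1.22 to -0.66 with single arrays left out. KDM4D held 0.90 with quantile normalization, 0.94 with array weights, with the compared arrays only and with groups by sample name (adjusted p = 0.215), and 0.60 to 1.29 with single arrays left out. With QC6352 in Rh30, leaving out single arrays gave -0.038 to 0.35 for KDM4C and -0.96 to -0.65 for KDM4D. In Rh41, KDM4C passed at 0.43 with the lowest 40% of genes left out, with trend and robust, with the compared arrays only and with only the arrays without conflicting labels, at 0.44 with array weights and at 0.50 with the background median subtracted. Between the lines, KDM4B passed at -0.53 with quantile normalization and at -0.52 after centring, and KDM4E held 0.18 and 0.17; those scalings move the median of all genes from 0.19 to -0.03 and -0.07.

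Groups by sample name changed most. Of 60 results of the other named genes, 25 kept sign and call. Another 23 kept the sign but lost the call, and 12 turned sign. For QC6352 in Rh30 these groups gave -0.035 for KDM4A, 0.70 for KDM4D, 0.060 for JMJD1C, 0.0055 for PHF2, -0.13 for KDM5A, 0.15 for KDM6A, 0.23 for TASOR and 0.078 for CBX3. In the same comparison RNF8 held 0.26, SETMAR 0.019, SETDB1 -0.015, HSP90AB1 -0.017 and KDM2B 0.38. KDM6B held 0.24, MPHOSPH8 0.58, NSD3 0.077 and RNF168 0.165. None of these values was called. KDM4D in Rh41 held -0.95 (adjusted p = 0.0601) and its difference between the lines -1.65 (adjusted p = 0.0367). That difference became -0.43 for JMJD1C, -0.073 for PHF2, 0.56 for KDM5A, -0.24 for KDM6A and -0.23 for HSP90AB1. It was -0.58 for KDM2B, -0.25 for KDM6B, 0.020 for KDM7A, 0.36 for KDM1B and 0.071 for SETDB1. PHF8 between the lines was 0.31. Against DMSO, KDM4E with the control hairpin was 0.68, and KDM4D and KDM4E with the control siRNA were 0.71 and 0.71. The cause was not tested.

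Of all genes, the hairpin called 2047, with 826 in a fit of the compared arrays only, 725 by sample name and 1039 to 1557 without single arrays. The siRNA called 81, with 341 without the lowest 40%, 438 with trend and robust, 9 with array weights, 19 with the replicate block, 8 to 1789 without single arrays, and 0 by sample name or with the compared arrays only, where 2203 and 1191 genes had an unadjusted p below 0.05. With groups by sample name, QC6352 called 89 in Rh30 against 6427 and 1537 in Rh41 against 3479, the difference 762 against 3534, and the control hairpin against DMSO 1583 against 3. By title the last count was 0 with the compared arrays only (822 genes at an unadjusted p below 0.05) or without control hairpin replicate 1 (891), and at most 12 otherwise. The control siRNA against DMSO called 5380, with 2894 after quantile normalization, 3483 after centring, 3034 with background subtracted and 2607 to 4753 without single arrays.

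Arrays of one number deviated together with r of 0.09 for the hairpin, -0.21 for the siRNA, 0.06 to 0.26 for QC6352 in Rh30 and -0.19 to -0.06 in Rh41, so the numbers were not taken to pair the arrays. The replicate block changed no call of a member; KDM4B after its hairpin stayed at -0.94 (adjusted p = 0.00308).

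The arrays hold 2 or 3 replicates. The signals of KDM4B, KDM4D and KDM4E lie within the range of the background sets on all arrays. So does that of KDM4C in Rh30 and in Rh41 with DMSO.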
